A study of Mus musculus with 63 samples.

Results

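The bone morphogenetic protein (BMP) pathway and Id genes described here are 7 of the 47517 gene symbols counted in 22 RNA-seq libraries of mouse pluripotent stem cells. They are the ligand gene Bmp4, the receptor gene Bmpr1a, the inhibitory SMAD gene Smad6 and the genes Id1, Id2, Id3 and Id4. The 7 were picked with their levels across the 10 groups of libraries in view, so those levels and the differences between them are given as descriptions and carry no p-value. All 7 passed the filter on low counts in each fitted model.

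BMP ligands bind pairs of type I and type II receptors at the cell surface, which phosphorylate SMAD1, SMAD5 and SMAD9, and these enter the nucleus with SMAD4 and bind target genes. The Id genes are among the best known direct targets of BMP signalling. ID proteins are helix-loop-helix proteins without a DNA-binding region that hold E proteins such as TCF3 and TCF12 away from E-box sites. In mouse embryonic stem cells, BMP acting through Id genes is known to support self-renewal together with LIF, while BMP4 is also known as an inducer of mesoderm and of extraembryonic fates.

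All cells were of strain C57BL/6. Embryonic stem (ES) cells were kept in serum-free 2i medium, which contains inhibitors of MEK and GSK3, and extended pluripotent stem (EPS) cells in serum-free LCDM medium, and each had 3 libraries. The other groups had 2 libraries each. EPS cells carried a control short hairpin RNA (EPS shCtrl) or a hairpin against Yy1, the gene of a zinc finger transcription factor (EPS shYy1, labelled Yy1-depleted). ES cells carried a control construct (ES oeCtrl) or a Yy1 overexpression construct (ES oeYy1). The same 4 lines were sampled again on day 6 in F4H medium, a name that the labels do not expand. For the day 6 controls the titles name shCtrl and oeCtrl while the genotype label says only control, and the titles were followed. Cells grew on inactivated mouse embryonic fibroblasts or on Matrigel, and the labels do not say which library came from which. The labels name a library kit for the day 6 libraries only, so stage and library preparation cannot be told apart. No origin is given for the replicates, so the spread behind each p-value is that between these libraries and may be technical.

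The 7 genes lie on 6 chromosomes of the mouse genome (GRCm38.p6). Bmp4 (chromosome 14, 46383525 to 46390669) and Bmpr1a (chromosome 14, 34411061 to 34503336) share one. Smad6 is on chromosome 9 (63953076 to 64022085), Id1 on chromosome 2 (152736251 to 152737410) and Id2 on chromosome 12 (25093799 to 25096092). Id3 is on chromosome 4 (136143822 to 136145392) and Id4 on chromosome 13 (48261116 to 48266028). The annotation places the non-coding genes Gm15217 and Gm15222 over part of Bmp4, and these held at most 28 and 81 counts in any library. The lncRNA gene A330033J07Rik overlaps Id4, with at most 12 counts. The strand setting of the counting is not given in the sources used here, so reads of such overlapping pairs may be mixed.

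RefSeq promoter sequences of GRCm38.p6 were found for 6 of the 7 genes, Id1 being the exception. The 250 bases before the start site are shown for Id2, Id3 and Bmp4, because of the 7 genes these 3 had the largest differences between the shYy1 and shCtrl lines of EPS cells, Id2 higher and Id3 and Bmp4 lower. Capitals mark the motifs searched on both strands: GGCGCC, the GC-rich site of SMAD1 and SMAD5; CAGAC, the SMAD4 core site (GTCTG on the other strand); CANNTG, the E-box; and ATGGC, the core of the YY1 motif (GCCAT on the other strand). No match shown overlaps another.
Id2: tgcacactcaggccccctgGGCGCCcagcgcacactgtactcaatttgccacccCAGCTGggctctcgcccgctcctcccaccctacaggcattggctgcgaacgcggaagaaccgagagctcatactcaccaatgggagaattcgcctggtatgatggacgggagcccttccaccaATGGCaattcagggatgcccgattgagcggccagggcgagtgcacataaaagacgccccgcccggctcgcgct
Id3: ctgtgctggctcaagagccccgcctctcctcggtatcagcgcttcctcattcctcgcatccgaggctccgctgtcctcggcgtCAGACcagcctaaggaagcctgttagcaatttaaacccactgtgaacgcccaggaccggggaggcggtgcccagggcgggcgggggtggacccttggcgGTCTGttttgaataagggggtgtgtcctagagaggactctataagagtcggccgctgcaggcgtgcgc
Bmp4: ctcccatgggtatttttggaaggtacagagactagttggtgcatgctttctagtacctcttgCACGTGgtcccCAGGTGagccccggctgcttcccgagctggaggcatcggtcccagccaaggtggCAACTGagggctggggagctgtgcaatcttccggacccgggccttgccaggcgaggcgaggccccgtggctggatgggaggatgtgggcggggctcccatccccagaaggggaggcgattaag
The windows are chr12:25096093-25096342 on the minus strand for Id2, chr4:136143572-136143821 on the plus strand for Id3 and chr14:46390670-46390919 on the minus strand for Bmp4. Positions are those of the first base of a match, counted from the start site, with a minus sign before it. The Id2 window held a GGCGCC at -231, an E-box at -196 and the ATGGC core at -73. The Id3 window held the SMAD4 core site at -167 and -68, and the Bmp4 window held 3 E-boxes, at -188, -177 and -123. Of the promoters not shown, those of Id4 and Bmpr1a each held 1 GGCGCC and that of Smad6 held 1 E-box, which lies after the start site. Such matches were common: of 32851 promoter windows of 300 bases, 11.9% held GGCGCC, 49.6% CAGAC, 72.3% CANNTG and 40.5% ATGGC.

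Each library held between 13672061 and 20782348 counts on genes. Levels are given as CPM, a gene's share of its library's gene counts on a fixed scale. A gene with 0 counts may be present at up to 0.144 to 0.219 CPM, the value of 3 counts. This limit covers counting error only. The targeted gene followed its labels: Yy1 was at 70.5 CPM in both shYy1 libraries against 134 in both shCtrl libraries, and at 934 to 941 CPM with the overexpression construct against 120 to 124. On day 6 Yy1 stood at 110 to 114 CPM with the hairpin against 123 to 129, and at 324 to 331 CPM with the construct against 120 to 126. The third library of ES and the third of EPS cells stood apart from the other 2 of their groups. The 2 EPS shCtrl libraries differed more than the libraries of any other group of 2. The summed level of 8 pluripotency markers was 3913 to 5130 CPM in undifferentiated libraries and 278 to 665 CPM on day 6, when 8 trophoblast markers reached 3177 to 6408 CPM from 120 to 220. That rise is one of a sum, most of it Krt8 (1667 to 3541 CPM as day 6 group means) and Krt18 (1233 to 2547 CPM). Of 7 markers tested, 5 or 6 were higher and 1 or 2 lower on day 6 in each line. The group means of Tfap2c were 89.7 to 170 CPM in the 4 undifferentiated lines and 17.3 to 31.7 CPM on day 6. Elf5, a defining trophoblast gene, stayed at or below 0.375 CPM in every library, and Cdx2 reached 21.6 to 48.4 CPM on day 6. The summed level of Y-linked genes also differed between lines, at 3.06 to 3.40 CPM in EPS shCtrl against 155 to 158 CPM in EPS shYy1, and at 111 to 131 CPM in ES oeCtrl against 26.9 to 27.7 CPM in ES oeYy1. On day 6 these sums were 16.4 to 17.4 CPM in EPS shCtrl and 169 to 176 CPM in EPS shYy1. They were 101 to 105 CPM in ES oeCtrl and 66.0 to 71.8 CPM in ES oeYy1. In EPS shCtrl and ES oeYy1 the sum thus also differed between stages. The lines compared may differ in more than their construct, and ES and EPS cells in more than their medium. This was not tested, nor was its part in the results.

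Bmp4, which encodes the ligand, had the widest range of the 7 genes. Its group mean was 157 times higher in day 6 EPS shCtrl cells than in undifferentiated ES oeCtrl cells. It was higher in EPS than in ES cells, lower after Yy1 depletion and higher after Yy1 overexpression. The 3 ES libraries held 2.52, 2.12 and 2.33 CPM and the 3 EPS libraries 22.3, 24.1 and 14.7 CPM. Every EPS library was above every ES library, at a log2 fold change of 3.21 ± 0.23 (SE). In the EPS lines Bmp4 was at 51.3 and 47.8 CPM with the control hairpin and at 4.90 and 6.80 CPM with the Yy1 hairpin. That drop of -3.13 ± 0.26 on the log2 scale left the depleted cells between ES and EPS cells. In the ES lines it was at 1.17 and 1.90 CPM with the control construct and at 20.2 and 21.0 CPM with the Yy1 construct. The rise of 3.73 ± 0.30 on the log2 scale brought the overexpressing ES cells into the range of the EPS libraries. The control lines themselves were 4.98 ± 0.30 apart on the log2 scale, EPS shCtrl higher.

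Day 6 in F4H brought Bmp4 to its highest levels in each line, and the lines then differed less. It was at 241 CPM in both EPS shCtrl libraries, 152 and 158 CPM in EPS shYy1, 107 and 110 CPM in ES oeCtrl and 160 and 165 CPM in ES oeYy1. No 2 of these groups overlapped. The log2 fold change for the hairpin was -0.50 ± 0.04 and for the construct 0.54 ± 0.05, in the same directions as before F4H. Against the undifferentiated cells of the same line the log2 rise was 2.14 ± 0.09 in EPS shCtrl, 4.76 ± 0.12 in EPS shYy1, 6.13 ± 0.14 in ES oeCtrl and 2.91 ± 0.10 in ES oeYy1. It was thus larger in the lines that began with less Bmp4. Ordered by mean, the 10 groups ran from ES oeCtrl through ES, EPS shYy1, EPS, ES oeYy1 and EPS shCtrl to the 4 day 6 groups, and only EPS and ES oeYy1 overlapped among neighbours.

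Bmpr1a, the type I receptor gene, varied least, with a ratio of 2.96 between the highest and the lowest group mean. In undifferentiated cells no comparison of it was called, a call being an adjusted p (Benjamini-Hochberg, over all genes tested) under 0.05 in edgeR's quasi-likelihood test. It was at 73.5, 65.3 and 92.6 CPM in ES and at 57.1, 59.4 and 70.9 CPM in EPS cells. These groups overlapped, with a log2 fold change of -0.24 ± 0.11, and with the replicate number as a block the difference was called at a log2 fold change of -0.23, as it was without the second ES library (-0.34). The hairpin lines held 98.3 and 89.4 CPM with shCtrl against 87.5 and 88.1 CPM with shYy1, and the construct lines 83.5 and 88.6 CPM with oeCtrl against 76.4 and 84.1 CPM with oeYy1. On day 6 the receptor was higher in each line, at 150 and 146 CPM in EPS shCtrl, 185 in both EPS shYy1 libraries, 149 and 160 CPM in ES oeCtrl and 154 and 163 CPM in ES oeYy1. The day 6 EPS shYy1 libraries stood above all others, at a log2 fold change of 0.46 ± 0.05 against day 6 EPS shCtrl. The log2 rise from undifferentiated to day 6 cells ran from 0.52 ± 0.07 in EPS shCtrl to 1.13 ± 0.07 in EPS shYy1. Of the 9 neighbouring pairs in the order of the groups, 6 overlapped.

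Smad6 encodes an inhibitory SMAD that blocks BMP receptor signalling and is itself induced by BMP. Its undifferentiated levels did not follow those of Bmp4. The gene was near the bottom of its range in ES cells, at 3.12, 3.18 and 1.73 CPM, and in EPS cells, at 1.18, 1.15 and 3.29 CPM. These groups overlapped through the third EPS library, and the log2 fold change of -0.49 ± 0.33 was not called. Without that library it was -1.09 and called. In the control lines it was higher than in the unmodified cells, at 16.2 and 11.8 CPM in EPS shCtrl and at 12.3 and 14.8 CPM in ES oeCtrl. With the Yy1 hairpin it was at 20.7 and 20.6 CPM, a log2 fold change of 0.50 ± 0.32 that was not called. With the Yy1 construct it was at 2.62 and 1.97 CPM, a log2 fold change of -2.56 ± 0.38 with no overlap.

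On day 6 the order of the Smad6 groups was another. ES oeYy1 was highest at 31.5 and 32.9 CPM, above ES oeCtrl at 19.9 and 19.3 CPM (log2 fold change 0.67 ± 0.09). EPS shCtrl was at 29.1 and 29.0 CPM and EPS shYy1 at 19.7 and 21.2 CPM (log2 fold change -0.37 ± 0.09). Both differences were called and both had the opposite sign to the undifferentiated value. Against the same line before F4H, Smad6 was higher in ES oeYy1 by 3.73 ± 0.17, in EPS shCtrl by 0.92 ± 0.13 and in ES oeCtrl by 0.54 ± 0.14 on the log2 scale. In EPS shYy1 the difference of 0.04 ± 0.13 was not called.

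**Figure D1:**
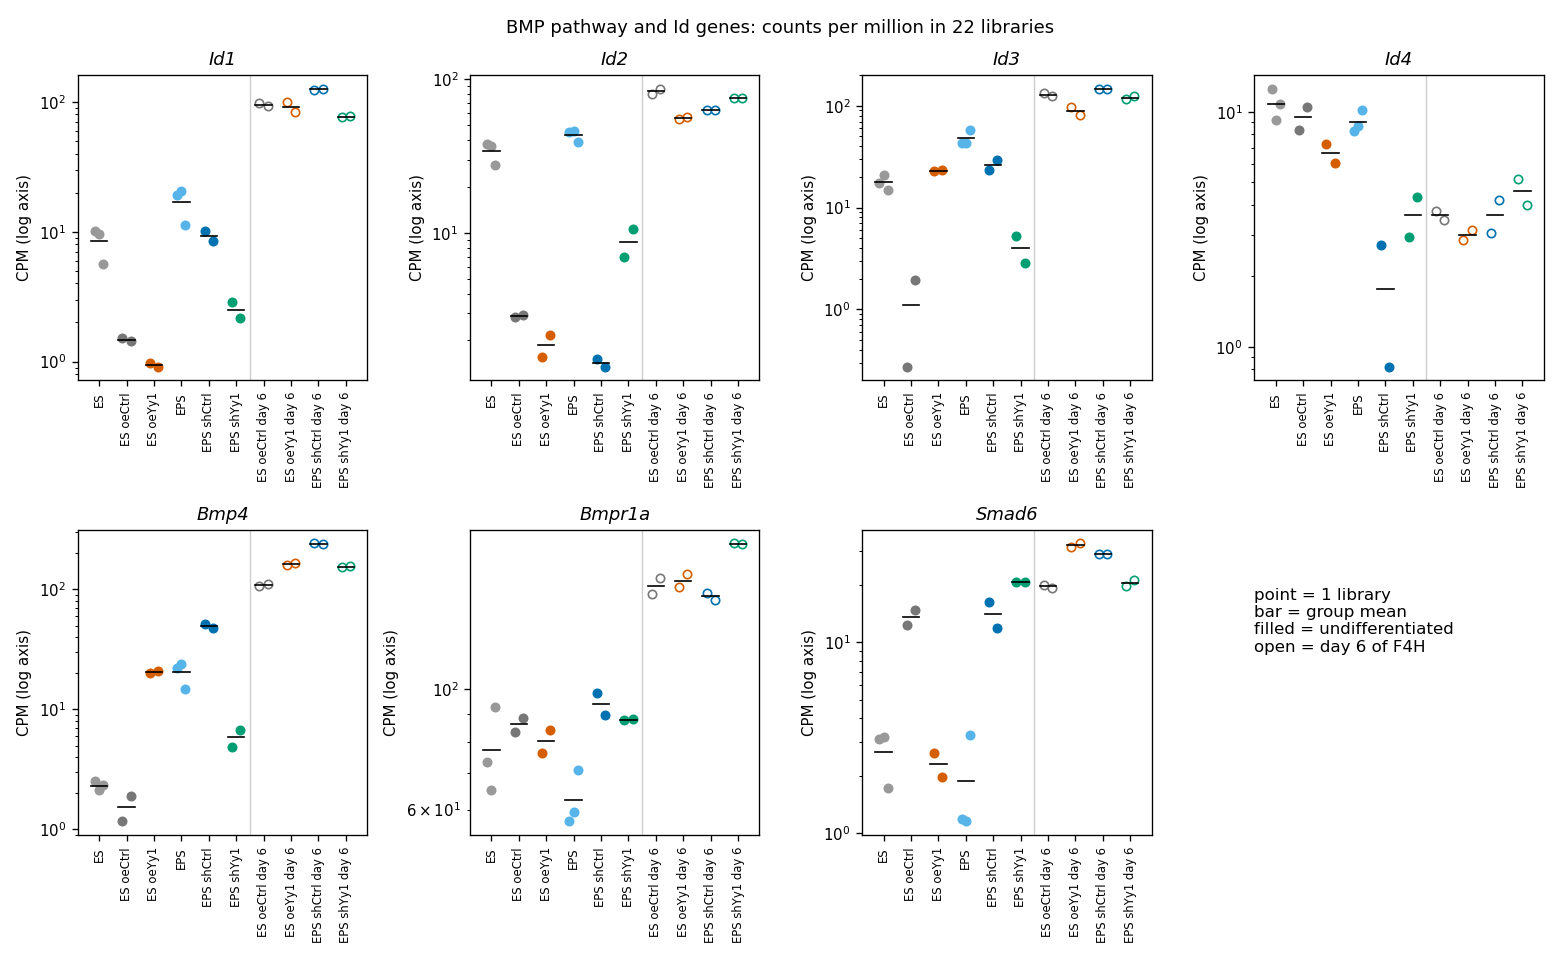
CPM (log axis) of each of the 7 genes in the 22 libraries, 1 point per library and a bar at the group mean, with filled points for undifferentiated cells and open points for day 6 of F4H. All genes but Id4 have their highest group mean on day 6, Id4 is highest in ES cells (12.5, 9.25 and 10.7 CPM), and the Bmpr1a axis covers the narrowest range.

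Id1 was higher in EPS than in ES cells and lower after Yy1 depletion, but not called after Yy1 overexpression. The ES libraries held 10.1, 9.60 and 5.67 CPM and the EPS libraries 19.3, 20.5 and 11.3 CPM. The groups did not overlap, although the lowest of each was the third, and the log2 fold change was 1.08 ± 0.25. In EPS shCtrl it was at 10.1 and 8.53 CPM and in EPS shYy1 at 2.85 and 2.17 CPM, a log2 fold change of -1.96 ± 0.35. In ES oeCtrl it was at 1.51 and 1.44 CPM and in ES oeYy1 at 0.981 and 0.916 CPM. Both ES construct lines were thus below every other library, and the log2 fold change between them was -0.64 ± 0.48. EPS shCtrl exceeded ES oeCtrl by 2.63 ± 0.38 on the log2 scale.

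After 6 days in F4H, Id1 rose in all 4 lines, by 3.60 ± 0.10 in EPS shCtrl, 5.00 ± 0.13 in EPS shYy1, 6.01 ± 0.14 in ES oeCtrl and 6.51 ± 0.15 in ES oeYy1 on the log2 scale. The day 6 libraries held 123 and 126 CPM in EPS shCtrl, 75.9 and 77.8 CPM in EPS shYy1, 97.3 and 93.6 CPM in ES oeCtrl and 99.0 and 84.1 CPM in ES oeYy1. The hairpin lines were apart, at a log2 fold change of -0.56 ± 0.06, and the construct lines overlapped, at -0.10 ± 0.06. Without the first day 6 ES oeYy1 library the construct difference was -0.22 and called. EPS shCtrl stood 0.24 ± 0.06 above ES oeCtrl.

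Id3 resembled Bmp4 in its undifferentiated levels. It was at 17.6, 21.1 and 14.8 CPM in ES and at 43.1, 43.2 and 58.3 CPM in EPS cells. Every EPS library was above every ES library, at a log2 fold change of 1.48 ± 0.26. With the Yy1 hairpin it fell from 23.3 and 29.2 CPM to 5.27 and 2.83 CPM, a log2 fold change of -2.79 ± 0.37. With the Yy1 construct it rose from 0.275 and 1.96 CPM to 22.9 and 23.3 CPM, a log2 fold change of 4.33 ± 0.44. The 2 ES oeCtrl libraries differed widely between themselves at these low counts, yet both lay below every other library. EPS shCtrl exceeded ES oeCtrl by 4.51 ± 0.44 on the log2 scale.

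The day 6 levels of Id3 ended this likeness. They were 147 CPM in both EPS shCtrl libraries, 117 and 124 CPM in EPS shYy1, 132 and 125 CPM in ES oeCtrl and 98.0 and 80.9 CPM in ES oeYy1. With the construct Id3 was now lower, by a log2 fold change of -0.57 ± 0.06, while Bmp4 was higher in the same libraries. With the hairpin the log2 fold change was -0.16 ± 0.06, called with edgeR but not with DESeq2 nor without the first day 6 EPS shYy1 library (-0.12). The log2 rise from undifferentiated cells was 6.82 ± 0.35 in ES oeCtrl, 4.98 ± 0.29 in EPS shYy1, 2.34 ± 0.22 in EPS shCtrl and 1.88 ± 0.23 in ES oeYy1.

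Id2 took the opposite direction to Id1 and Id3 after Yy1 depletion. It was at 1.51 and 1.35 CPM in EPS shCtrl and at 7.02 and 10.5 CPM in EPS shYy1, a log2 fold change of 2.56 ± 0.28. In the ES construct lines it was at 2.82 and 2.94 CPM with oeCtrl and at 1.57 and 2.18 CPM with oeYy1. The latter were lower without overlap, at a log2 fold change of -0.63 ± 0.31 that was not called. The unmodified cells held far more, 37.7, 36.8 and 27.4 CPM in ES and 45.4, 46.0 and 39.2 CPM in EPS cells. They did not overlap, and the log2 fold change of 0.42 ± 0.16 was called only with the replicate number as a block (0.43), without a count filter (0.42) or without the third EPS library (0.53). EPS shCtrl was below ES oeCtrl by a log2 fold change of -1.02 ± 0.32, a call lost when the model held only those libraries (-1.02) and without either EPS shCtrl library (-1.06 and -0.99) or the second ES oeCtrl library (-0.98).

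On day 6 Id2 stood at 62.6 and 63.1 CPM in EPS shCtrl, 75.3 and 75.5 CPM in EPS shYy1, 80.4 and 86.6 CPM in ES oeCtrl and 55.4 and 56.4 CPM in ES oeYy1. It was again higher with the hairpin, by 0.40 ± 0.06, and lower with the construct, at a log2 fold change of -0.62 ± 0.06. No neighbouring pair among its 10 groups overlapped. The log2 rise over undifferentiated cells was 5.31 ± 0.17 in EPS shCtrl, 3.14 ± 0.13 in EPS shYy1, 4.86 ± 0.15 in ES oeCtrl and 4.83 ± 0.17 in ES oeYy1.

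In undifferentiated cells the contrast between unmodified and construct-bearing cells in Id2 ran beside that of fibroblast markers. The summed level of 13 feeder fibroblast markers was 2247 to 4073 CPM in ES, 267 to 815 CPM in EPS, 8.82 to 51.3 CPM in the 4 undifferentiated construct lines and 426 to 609 CPM on day 6. The markers did not stand alike on day 6. The day 6 group means of Lum (0.0697 to 2.07 CPM) and Dcn (2.54 to 4.57 CPM) were below those in EPS cells (15.6 and 31.8 CPM). So were those of Postn, Prrx1, Col3a1, Thy1 and Fap. Those of Col1a1 (186 to 315 CPM) and Pdgfrb (32.1 to 44.5 CPM) were above those in EPS cells (100 and 8.79 CPM), as were Fbn1 and Twist1. Col1a2 and Col5a2 lay on both sides. Lum was at 0 in EPS shCtrl and Fap at 0 in ES oeYy1 and day 6 EPS shCtrl. Of the 13 markers, 5 were higher and 0 lower with the Yy1 hairpin in undifferentiated cells, when Id2 was higher, although their sum was only 41.9 to 51.3 CPM against 18.0 to 31.8 CPM. From ES to EPS cells 10 fell and 0 rose, while Id2 did not fall. The part of feeder cells in the Id2 levels was not tested, and in bulk libraries fewer cells of a type and less RNA per cell cannot be told apart.

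**Figure D2:**
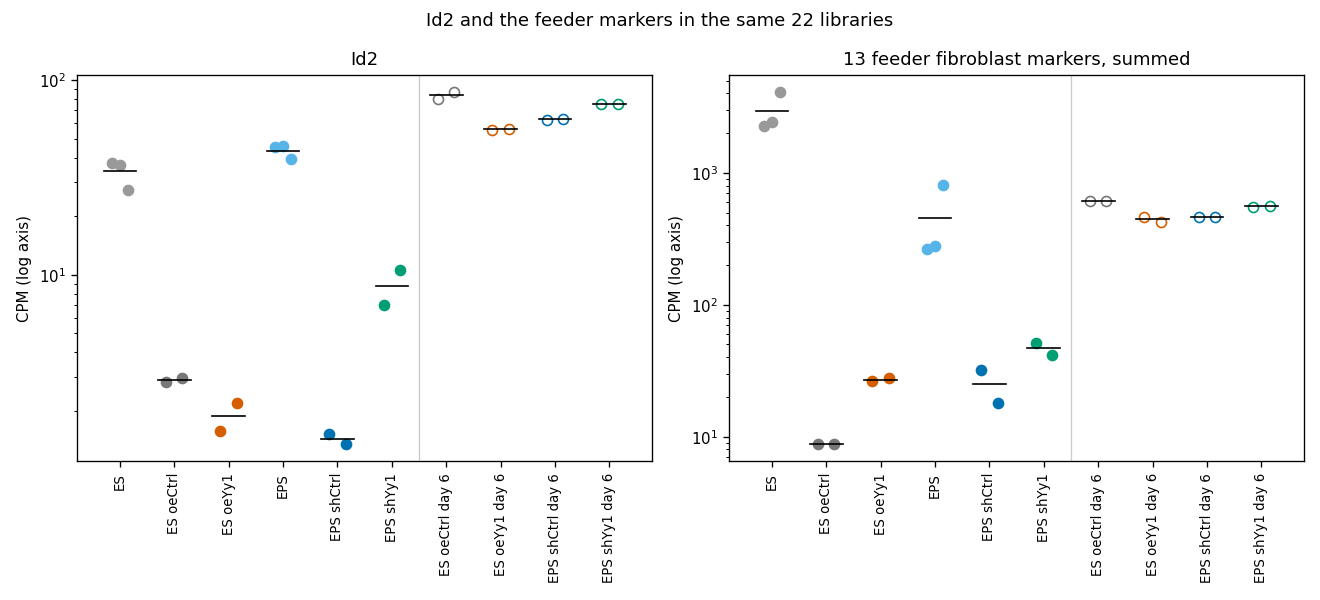
CPM (log axis) of Id2 (left) and of 13 feeder fibroblast markers summed (right) in the same 22 libraries, with bars at group means, filled points for undifferentiated cells and open points for day 6 of F4H. Both are low in the 4 undifferentiated construct lines, while ES cells exceed EPS cells in the marker sum (2247 to 4073 against 267 to 815 CPM) and not in Id2.

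Id4 had the narrowest range of the Id genes, with a ratio of 6.14 between the highest and the lowest group mean. It alone of the Id genes had its highest levels in ES cells. It was at 12.5, 9.25 and 10.7 CPM in ES, 8.29, 8.66 and 10.2 CPM in EPS, 8.39 and 10.5 CPM in ES oeCtrl and 7.26 and 6.06 CPM in ES oeYy1. The first 3 of these groups overlapped, and neither EPS against ES (-0.20 ± 0.24) nor the construct (-0.51 ± 0.31) was called, although the latter was when the model held only those libraries (-0.50). EPS shCtrl held the lowest levels, 2.71 and 0.823 CPM, and was below ES oeCtrl by a log2 fold change of -2.46 ± 0.35. EPS shYy1 was at 2.93 and 4.33 CPM, a log2 fold change of 1.01 ± 0.37 against EPS shCtrl. That difference was not called, but was with DESeq2 (1.02), RLE factors (1.02), no count filter (1.01) or the replicate block (1.03), and without the first EPS shCtrl library (2.03).

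F4H moved Id4 in opposite directions in the control lines. In ES oeCtrl it was lower on day 6, at 3.76 and 3.48 CPM, a log2 fold change of -1.38 ± 0.29, and in ES oeYy1 also, at 2.86 and 3.13 CPM (-1.22 ± 0.32). In EPS shCtrl it was higher on day 6, at 3.03 and 4.23 CPM, a log2 fold change of 0.93 ± 0.35. This last call rested on the second EPS shCtrl library, without which the value was 0.39 and not called, and it was also lost without the second day 6 EPS shCtrl library (0.66) and when the model held only those libraries (0.93). EPS shYy1 held 5.20 and 4.00 CPM on day 6, which overlapped its undifferentiated range (0.39 ± 0.31, not called). The day 6 hairpin difference of 0.48 ± 0.21 was called with overlapping groups. It was not called with DESeq2 (0.49) or without a count filter (0.47), and it was 0.27 and not called without the first day 6 EPS shYy1 library and 0.26 and not called without the first day 6 EPS shCtrl library.

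Counted over the 7 genes, EPS against ES had 3 called higher (Bmp4, Id1 and Id3) and 0 lower, where 13.8% of the 16440 genes tested were called higher and 16.9% lower. With the replicate number as a block the count was 5, adding Id2 (higher) and Bmpr1a (lower), beside 6392 of all genes called in place of 5033. Without the third ES and EPS libraries the count was 4, beside 5352 of all genes called. That fit added Smad6 at a log2 fold change of -1.34, and Bmp4 was then at 3.41, Id1 at 1.10 and Id3 at 1.24. The hairpin gave 1 higher (Id2) and 3 lower (Bmp4, Id1 and Id3), beside 15.1% of all genes higher and 13.3% lower. Overexpression gave 2 higher (Bmp4 and Id3) and 1 lower (Smad6), beside 14.8% and 17.1%. EPS shCtrl against ES oeCtrl gave 3 higher (Bmp4, Id1 and Id3) and 2 lower (Id2 and Id4), beside 19.7% and 20.7%. Groups without overlap were common over all genes, at 40.9% for EPS against ES, 65.7% for the hairpin, 74.4% for overexpression and 70.6% for EPS shCtrl against ES oeCtrl. These comparisons share control libraries, and since the genes were chosen on these levels nothing is read from their counts.

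The shares of all genes called were larger on day 6. The day 6 hairpin comparison had 3 of the 7 higher and 4 lower, where 30.9% of 15927 genes were higher and 30.4% lower. The construct had 2 higher and 2 lower, beside 20.3% and 21.6%, and EPS shCtrl against ES oeCtrl 3 higher and 2 lower, beside 31.6% and 32.4%. From undifferentiated cells to day 6 all 7 were higher in EPS shCtrl, 5 in EPS shYy1, 6 in ES oeCtrl and 6 in ES oeYy1, where 37.5, 37.9, 37.1 and 35.7% of 17207 genes were higher. Lower calls numbered 0, 0, 1 and 1 (Id4 in both ES lines), beside 36.6, 37.4, 35.9 and 36.9%. Groups without overlap made up 81.1% of all genes for the day 6 hairpin, 67.8% for the construct and 82.2% for the controls, and 84.6, 88.6, 86.5 and 87.6% for the 4 lines from undifferentiated to day 6.

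**Figure D3:**
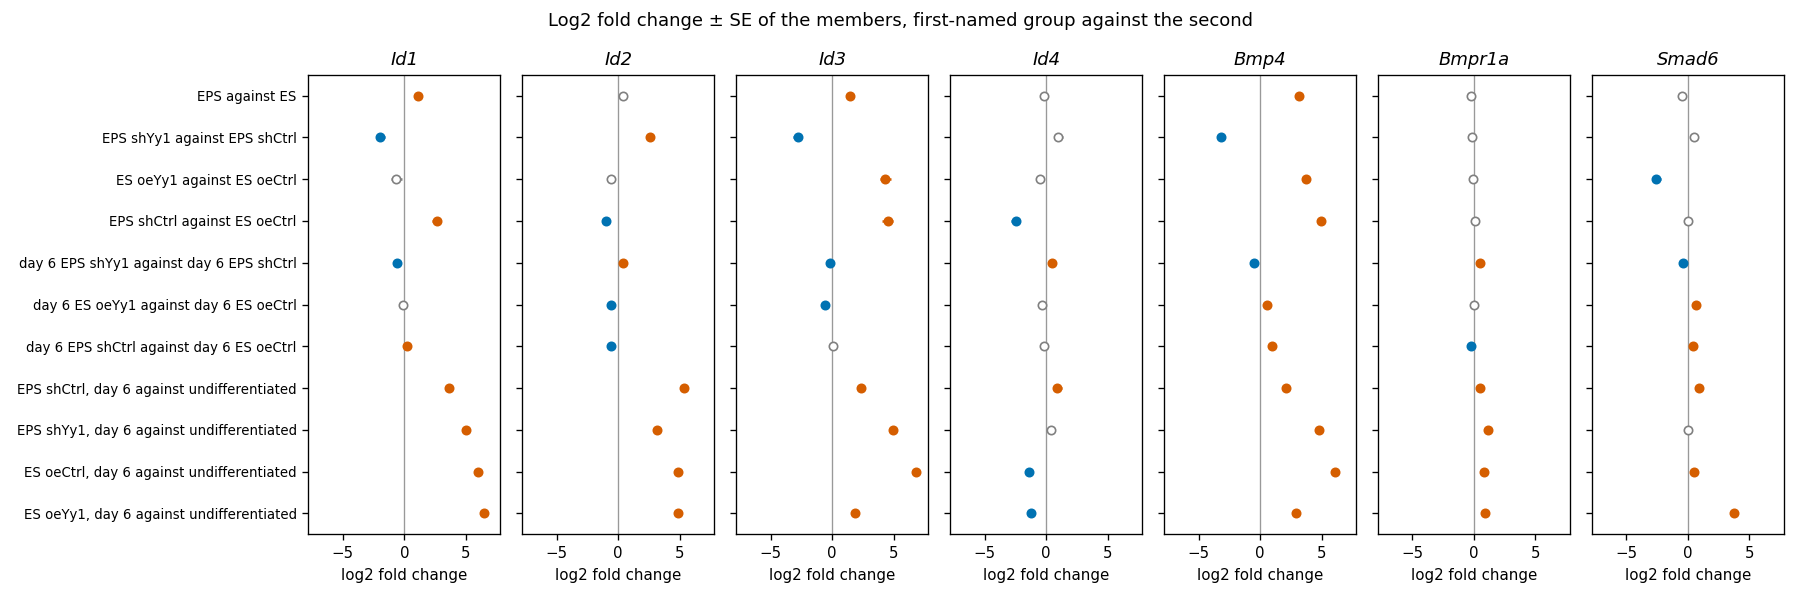
Log2 fold change with its SE (x axis) of each of the 7 genes in 11 comparisons (rows), in orange where called higher, in blue where called lower and open where not called. Bmp4 and Id3 move left with the hairpin (-3.13 and -2.79) and right with the construct (3.73 and 4.33), and Id2 moves right with the hairpin (2.56). For Smad6 the day 6 construct contrast (0.67) exceeds the day 6 rise in ES oeCtrl (0.54).

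Beyond the 7, 67 other genes of the pathway were tested as a list, of which 56 passed the filter in undifferentiated cells. In EPS against ES cells 5 of the 56 rose and 10 fell, beside 30.6% of all genes called (5033 of 16440). With the replicate number as a block 10 rose and 13 fell, beside 6392 of all genes called. The median log2 fold change of the list without the block was -0.18 against 0.00 over all genes. The falls included receptor-activated SMADs. Smad9 was at 0.374 ± 0.101 CPM (SD, n = 3) in EPS against 5.00 ± 0.295 in ES cells, a log2 fold change of -3.66 ± 0.30 (adjusted p = 1.45e-07, edgeR). Smad1 fell by 1.06 ± 0.16 on the log2 scale (adjusted p = 8.02e-05), while Smad5 and the shared partner Smad4 were not called, at -0.17 ± 0.13 and -0.01 ± 0.10. Smad7, the other inhibitory SMAD, was at 21.2 ± 0.953 against 62.2 ± 9.72 CPM (log2 fold change -1.49 ± 0.17, adjusted p = 5.69e-06). Gdf3, a ligand gene of the same superfamily expressed in pluripotent cells, was at 109 ± 6.36 against 220 ± 20.9 CPM, and Twsg1, an extracellular BMP modulator, at 119 ± 10.3 against 72.2 ± 9.93 CPM (adjusted p = 2.10e-06 and 5.96e-05). So where Bmp4, Id1 and Id3 were higher, Smad1 and Smad9 were lower. The 3 E protein genes listed as partners of ID proteins gave no call without the block and with all libraries. Tcf12 was called lower with the replicate block (-0.32, adjusted p = 0.0143, edgeR) and without a count filter (-0.35, adjusted p = 0.0292). It was also called without the third EPS library (-0.50), and Tcf3 was called higher without the second ES library (0.30). The feeder marker sum was also lower in EPS cells, as given above, and its part in these falls was not tested.

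With the Yy1 hairpin 12 of the 56 were higher and 7 lower, beside 28.5% of all genes called. The list median was -0.01 against -0.01 over all genes. These lines also differed in their Y-linked sums, as given above, and the part of that line difference was not tested. Of 13 target genes 4 rose and 1 fell. Dusp9, a MAP kinase phosphatase gene, was at 552 ± 47.9 CPM (SD, n = 2) with the Yy1 hairpin against 181 ± 60.1, a log2 fold change of 1.56 ± 0.17 (adjusted p = 4.05e-06, edgeR). Prdm1, a transcriptional repressor gene needed for germ cell specification, was at 5.19 ± 0.525 against 0.949 ± 0.261 CPM (log2 fold change 2.38 ± 0.26, adjusted p = 5.23e-06). Among 11 receptors and co-receptors 3 rose and 0 fell, among them Eng, a co-receptor gene, at 91.0 ± 0.682 against 53.1 ± 7.01 CPM (adjusted p = 1.91e-04) and the type I receptor gene Acvr1 at 0.61 ± 0.20 on the log2 scale (adjusted p = 0.0289). Fst, the gene of follistatin, which binds activins and BMPs, fell from 8.61 ± 1.13 to 2.26 ± 0.811 CPM (log2 fold change -1.98 ± 0.28, adjusted p = 5.73e-05). Of the SMADs of the BMP branch, Smad9 was higher with the hairpin, at 2.65 ± 0.597 against 0.821 ± 0.00305 CPM (log2 fold change 1.61 ± 0.35, adjusted p = 0.00247), while Smad1, Smad5 and Smad4 were not called, at -0.24 ± 0.18, -0.33 ± 0.15 and -0.06 ± 0.12. Smad7 was lower at -0.59 ± 0.19 (adjusted p = 0.0318), a call lost without the first EPS shCtrl library (-0.14), without either EPS shYy1 library (-0.59 each) and when the model held only those libraries (-0.57). Of the 3 E protein genes, Tcf4 was lower at -0.55 ± 0.15 (adjusted p = 0.0133), a call lost without the first EPS shCtrl library (-0.49) or the second EPS shYy1 library (-0.47). Tcf3 was lower at -0.35 ± 0.13 (adjusted p = 0.0495), a call lost with RLE factors (adjusted p = 0.0551), and Tcf12 was not called (0.10 ± 0.21). When the model held only the libraries compared, the Tcf3 and Acvr1 calls were lost (-0.33 and 0.63). Leaving out the second EPS shCtrl library or either EPS shYy1 library cut the number of list members called to 11, 9 and 11, and the Acvr1 and Tcf3 calls were lost in each of these. Primitive endoderm markers moved in the same comparison: the sum of 8 was 23.4 to 27.4 CPM with the Yy1 hairpin against 66.6 to 72.7 CPM, none was at 0 in either group, and of 7 tested 5 were lower and 0 higher. Gata6, a defining gene of that lineage, was at 4.77 ± 1.12 against 19.5 ± 8.73 CPM. The part of such cells in these differences was not tested.

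With the Yy1 construct 7 of the 56 were higher and 15 lower, beside 32.0% of all genes called, with a list median of -0.10 against 0.01. The Y-linked sums of these lines differed too, and the part of that was not tested. Prdm1 fell from 27.02 ± 0.499 to 6.69 ± 0.898 CPM (SD, n = 2), a log2 fold change of -2.01 ± 0.20 (adjusted p = 1.26e-06, edgeR). Dusp9 fell from 44.9 ± 3.80 to 18.1 ± 2.46 CPM (log2 fold change -1.31 ± 0.18, adjusted p = 4.01e-05) and Gata2, a GATA factor gene active in trophoblast and blood lineages, from 21.3 ± 5.51 to 4.18 ± 1.13 CPM (log2 fold change -2.35 ± 0.30, adjusted p = 1.88e-05). Prdm1 and Dusp9 thus had opposite signs with the hairpin and the construct, as Bmp4 and Id3 had with the reverse order of signs. Twsg1 fell from 99.3 ± 3.63 to 42.0 ± 0.130 CPM (adjusted p = 7.29e-06), and Smad1 and Acvr1 fell by 0.66 ± 0.18 and 1.20 ± 0.20 on the log2 scale (adjusted p = 0.00853 and 2.44e-04). Smad7 was not called (0.08 ± 0.19). The neuroectoderm sum was 52.8 to 60.5 CPM with the construct against 109 to 121 CPM, 2 of 5 tested markers being lower and 0 higher, and its part was not tested. Without the second ES oeYy1 library 12 of the list were called, and the Smad1 call was lost without it (-0.56) or without the second ES oeCtrl library (-0.62).

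The 2 control lines differed from each other as widely. EPS shCtrl against ES oeCtrl had 13 of 56 higher and 13 lower, beside 40.4% of all genes called. Dusp9 was at 181 ± 60.1 CPM (SD, n = 2) against 44.9 ± 3.80 (log2 fold change 1.98 ± 0.17, adjusted p = 1.64e-07, edgeR). Prdm1 was at 0.949 ± 0.261 CPM (SD, n = 2) in EPS shCtrl against 27.02 ± 0.499 in ES oeCtrl (log2 fold change -4.85 ± 0.25, adjusted p = 5.30e-10, edgeR). Msx2, a homeobox gene and BMP target, was at 9.49 ± 3.88 against 0.404 ± 0.109 CPM (log2 fold change 4.53 ± 0.48, adjusted p = 1.48e-06). Fstl1, a secreted follistatin-like gene, was at 206 ± 21.4 against 18.0 ± 3.68 CPM (log2 fold change 3.51 ± 0.26, adjusted p = 8.63e-08). The 6 intracellular inhibitors gave no call with edgeR. Smad7, at 0.49 ± 0.19 (adjusted p = 0.0539), was called with DESeq2 (adjusted p = 0.0414), with RLE factors (0.0408), without a count filter (0.00546) and without the second EPS shCtrl library (0.000938, at a log2 fold change of 0.83). The primitive endoderm sum was 66.6 to 72.7 CPM in EPS shCtrl against 17.4 to 19.1 CPM, 6 of 7 tested markers being higher and 0 lower. The neuroectoderm sum was 29.0 to 37.2 against 109 to 121 CPM, with 2 of 5 tested markers higher and 2 lower. None of either list was at 0 in these groups, and their part in the differences was not tested.

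On day 6 most of the list differed with the hairpin: 25 of 57 rose and 18 fell, beside 61.3% of all genes called. All 6 intracellular inhibitors were called, 5 higher and 1 lower. Skil, which encodes a SMAD co-repressor, was at 145 ± 7.57 CPM (SD, n = 2) against 79.8 ± 3.71 (log2 fold change 0.99 ± 0.05, adjusted p = 1.71e-23, edgeR), and Smad7 was higher by 0.59 ± 0.06 (adjusted p = 7.60e-13). Crim1, a membrane protein gene whose product binds BMPs, rose from 55.4 ± 1.94 to 126 ± 1.87 CPM (log2 fold change 1.32 ± 0.05, adjusted p = 9.73e-30). The ligand gene Bmp7 fell from 59.2 ± 1.29 to 16.4 ± 0.307 CPM (log2 fold change -1.72 ± 0.08, adjusted p = 4.87e-26). Hand1, a basic helix-loop-helix gene of trophoblast and mesoderm, fell from 154 ± 5.04 to 62.1 ± 0.853 CPM (log2 fold change -1.17 ± 0.06, adjusted p = 1.38e-26). Smad1 was lower by a log2 fold change of -0.48 ± 0.07 (adjusted p = 5.73e-09) and the type II receptor gene Bmpr2 higher by 0.79 ± 0.05 (adjusted p = 3.46e-19). In the same libraries Bmp4, Id1, Id3 and Smad6 were lower and Id2 and Bmpr1a higher. The trophoblast marker sum was 6326 to 6408 CPM in day 6 EPS shYy1 against 3177 in both day 6 EPS shCtrl libraries, 5 of 7 tested markers being higher and 2 lower. Most of that sum was Krt8 (3541 against 1667 CPM) and Krt18 (2547 against 1233 CPM), while Cdx2 (22.04 against 41.9 CPM) and Eomes (63.6 against 113 CPM) were the 2 lower. The mesendoderm sum was 210 to 220 against 419 to 423 CPM, with 5 of 6 markers lower, among them T (107 against 246 CPM) and Eomes, which is on both lists, and Mixl1 higher (35.4 against 17.6 CPM). The primitive endoderm sum was 114 to 115 against 217 to 220 CPM, 5 of 8 markers being lower and 2 higher. The part of these markers in the differences was not tested.

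With the construct on day 6, 19 of the 57 rose and 17 fell, beside 41.9% of all genes called. Crim1 fell from 150 ± 2.24 to 77.5 ± 0.376 CPM (SD, n = 2), a log2 fold change of -0.996 ± 0.05 (adjusted p = 1.51e-23, edgeR), and the ligand gene Bmp8b from 58.6 ± 2.96 to 24.2 ± 0.619 CPM (log2 fold change -1.32 ± 0.08, adjusted p = 3.54e-21). Bmp2, the ligand gene most closely related to Bmp4, rose from 31.0 ± 0.0440 to 64.2 ± 1.68 CPM (log2 fold change 1.01 ± 0.07, adjusted p = 5.35e-18). Tbx3, a T-box gene, rose from 36.9 ± 0.703 to 76.0 ± 5.79 CPM (log2 fold change 1.00 ± 0.07, adjusted p = 2.93e-18). Smad1 was higher by 0.77 ± 0.06 (adjusted p = 7.78e-16) and Smad7 lower by a log2 fold change of -0.22 ± 0.06 (adjusted p = 8.65e-04). Bmp2, Bmp4, Smad1 and Smad6 were thus higher here while Id2 and Id3 were lower. The trophoblast sum was 3275 to 3428 CPM with the construct against 5559 to 5613 CPM, with 5 of 7 tested markers lower and 2 higher. Most of it was again Krt8 (1758 against 3161 CPM) and Krt18 (1292 against 2181 CPM), and the 2 higher were Cdx2 (48.0 against 31.1 CPM) and Eomes (185 against 68.5 CPM). The mesendoderm sum was 620 to 693 against 344 to 351 CPM, 5 of 6 markers being higher and 1 lower, and the part of either list was not tested. The day 6 controls differed in 44 of 57 list members, 20 higher and 24 lower in EPS shCtrl, beside 64.1% of all genes. Hand1 (154 ± 5.04 against 45.6 ± 3.91 CPM, adjusted p = 1.79e-32) and Bmp7 (59.2 ± 1.29 against 11.7 ± 0.336 CPM, adjusted p = 4.79e-30) were higher there. Crim1 was lower there at a log2 fold change of -1.59 ± 0.05 (adjusted p = 3.95e-34), and so was Skil at -1.28 ± 0.05 (adjusted p = 1.21e-28).

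**Figure D4:**
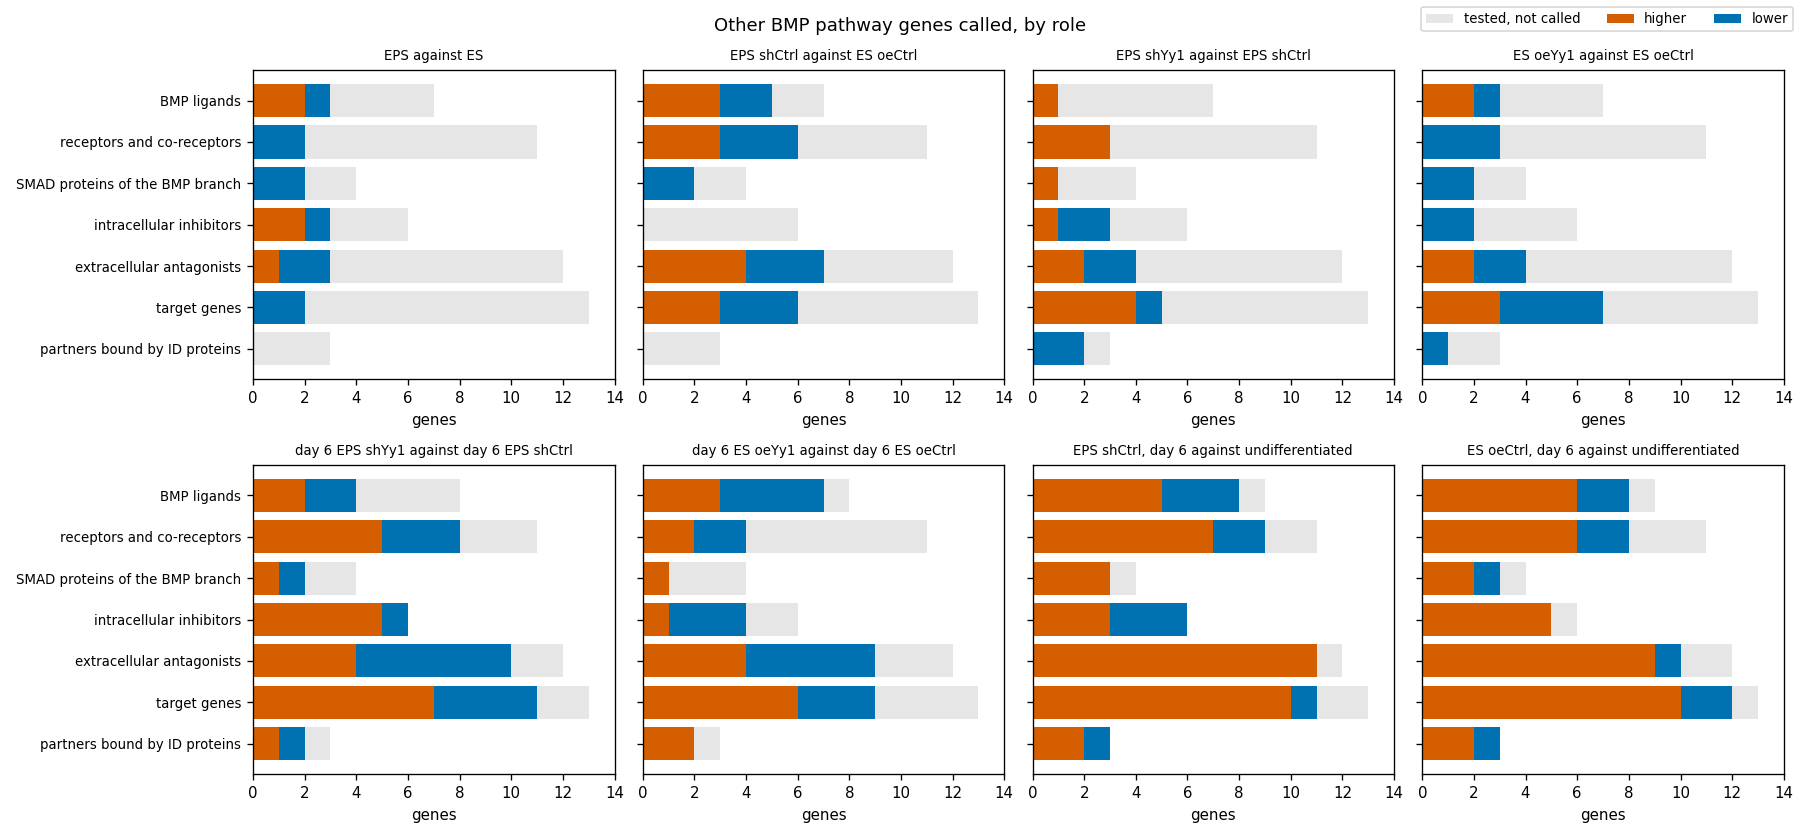
Number of other BMP pathway genes (x axis) tested (grey), called higher (orange) and called lower (blue) in each of 7 roles (rows) for 8 comparisons. In undifferentiated cells the calls run from 0 of 6 intracellular inhibitors to 5 of 7 ligand genes, both for EPS shCtrl against ES oeCtrl. All 6 intracellular inhibitors are called in the day 6 hairpin comparison, and 11 of 12 extracellular antagonists are higher on day 6 in EPS shCtrl.

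The move to F4H shifted more of the list than any contrast between lines, and mostly upwards. Of 58 genes tested, 41 rose and 10 fell in EPS shCtrl, 41 and 9 in EPS shYy1, 40 and 9 in ES oeCtrl and 41 and 8 in ES oeYy1, beside 74.1, 75.4, 73.0 and 72.7% of all genes called. The list medians were 1.02, 0.95, 1.29 and 1.42 on the log2 scale against 0.01, 0.00, 0.03 and -0.03 over all genes. Of 9 ligand genes tested in EPS shCtrl, 5 rose and 3 fell (Bmp6, Gdf3 and Gdf7). Bmp2 went from 0.365 ± 0.0178 to 49.8 ± 0.463 CPM (SD, n = 2), a log2 fold change of 6.92 ± 0.19 (adjusted p = 3.23e-18, edgeR). Nog, the gene of the BMP antagonist noggin, went from 0.672 ± 0.119 to 79.0 ± 0.170 CPM (log2 fold change 6.73 ± 0.18, adjusted p = 2.55e-18), and 11 of 12 extracellular antagonists tested rose in that line. Nog also rose by 6.56 ± 0.19 in EPS shYy1, 6.53 ± 0.20 in ES oeCtrl and 7.82 ± 0.21 in ES oeYy1 (adjusted p = 8.69e-18, 2.73e-17 and 4.05e-18). Hand1 went from 0.645 ± 0.246 to 154 ± 5.04 CPM in EPS shCtrl, and in ES oeYy1 from 0 counts in both libraries to 76.9 ± 2.15 CPM, at least 377-fold higher taking 3 counts per library as the floor. Bmp8b had 1 count in the 2 undifferentiated ES oeCtrl libraries together and 58.6 ± 2.96 CPM on day 6. Gdf3 fell, from 86.3 ± 3.88 to 0.897 ± 0.0838 CPM in EPS shCtrl (log2 fold change -6.72 ± 0.15, adjusted p = 8.34e-20), by a log2 fold change of -6.66 ± 0.14 in EPS shYy1 (adjusted p = 7.17e-20) and by -4.22 ± 0.11 in ES oeYy1 (adjusted p = 1.67e-18).

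The core of the pathway moved less on day 6. Smad5 and Smad4 rose in all 4 lines, Smad5 by 0.74 to 1.03 and Smad4 by 0.27 to 0.66 on the log2 scale. Smad1 rose in 3 lines, by 0.58 ± 0.09 in EPS shYy1, 0.83 ± 0.09 in EPS shCtrl and 1.56 ± 0.09 in ES oeYy1, and was not called in ES oeCtrl (0.16 ± 0.09). Bmpr2 rose in each line, from 0.22 ± 0.09 in EPS shCtrl to 1.73 ± 0.10 in ES oeYy1, the EPS shCtrl call being lost without the second EPS shCtrl library (0.15) and without either day 6 EPS shCtrl library (0.20 and 0.24). The E protein gene Tcf12 rose in all 4 lines, by 0.75 to 1.42, while Tcf3 fell in all 4, by log2 fold changes of -0.73 to -0.25. The Tcf3 call was lost in EPS shCtrl without the second undifferentiated library (-0.14), and in ES oeYy1 without either undifferentiated library (-0.23 and -0.16) or the second day 6 library (-0.20). The Smad4 call in ES oeYy1 was lost without its second day 6 library (0.23). Of the feeder fibroblast markers 9 to 11 of 12 tested were higher on day 6 than in undifferentiated cells of the same line, and the part of such cells in these changes was not tested.

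Whether an effect changed between stages was tested for the list by the difference of the log2 fold changes in 1 model of both stages. The hairpin effect changed for 25 of 58 list members, beside 41.5% of all genes. The construct effect changed for 28, beside 37.6%. The F4H response differed between EPS shCtrl and ES oeCtrl for 38, beside 48.7%. Bmp7, for one, had a hairpin effect lower by 2.85 ± 0.19 on day 6 than before on the log2 scale (adjusted p = 5.26e-10, edgeR). Yy1 itself differed less on day 6. Its group means were 112 against 126 CPM for the hairpin and 328 against 123 CPM for the construct. In undifferentiated cells they were 70.5 against 134 CPM and 937 against 122 CPM. The part of this in the changed effects was not tested.

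Likeness of pattern was measured as the root mean square difference between centred group means of log2(CPM + 1) over the 10 groups, among 11065 genes that averaged at least 5 CPM. Within the 7, the smallest differences were those of Bmpr1a and Smad6 (0.95), Id3 and Bmp4 (1.01), Id4 and Bmpr1a (1.04) and Id1 and Id3 (1.07). The largest was that of Id4 and Bmp4 (2.78). The measure is also small for genes that vary little, whatever their direction. The group means of Id4 and Bmpr1a had the smallest SDs of the 7 on this scale (0.71 and 0.54). From undifferentiated ES oeCtrl to day 6, Id4 was lower (-1.38 ± 0.29) and Bmpr1a higher (0.85 ± 0.07), so their 1.04 is not a shared pattern. Outside them, the genes nearest to Bmp4 were Dbn1 (0.67), Basp1 (0.72) and Cgnl1 (0.79), and those nearest to Id3 were Gja1 (0.70), Gramd3 (0.79) and Ehd2 (0.80). Id1 was nearest to Cdk14 (0.53), Hs6st2 (0.54) and Fkbp10 (0.55). Id2 was nearest to Serpine2 (0.46), Ptgs2 (0.57) and Tnfaip3 (0.58). Smad6 was nearest to Tmcc2 (0.40), Prr36 (0.42) and Soga1 (0.44), and Id4 to Cd9 (0.20), Dkkl1 (0.24) and Pip4k2c (0.28). The group means of Bmpr1a spanned 1.56 on this scale, under the 2 asked for, so no gene was named for it.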

How the data were processed

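RNA was measured in 22 libraries in 10 groups of 2 or 3. The authors deposited 1 table of raw read counts per gene symbol for each library. Per the submitters' processing notes, CASAVA, Bowtie2 2.3.2, mm10 and GRCm38.p6 were used for the series, without their roles; the counting tool and strand setting are not given in the sources used here. The closing lines of each table name no gene and were left out: 5.61 to 8.62% of all counts had no feature, 3.70 to 5.32% were ambiguous and 5.45 to 6.66% were not unique. The other 41 samples of the series were not analysed here.

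Levels are CPM, counts divided by the library's gene counts and not by gene length, so levels are not compared between genes. The 3 models were fitted with edgeR 4.0.16 (R 4.3.3; TMM, filterByExpr, robust quasi-likelihood F-test): 14 undifferentiated libraries in 6 groups, 8 day 6 libraries in 4 groups, and 16 libraries of both stages in 8 groups. Calls are those with an adjusted p (Benjamini-Hochberg, over all genes tested) under 0.05. The models were tested on simulated data. The members and lists were chosen with earlier results of these data known. Named list genes are the 4 called genes of smallest p per comparison with at least 1 CPM on average, and Smad1, Smad5, Smad4, Smad7, Bmpr2, Acvr1, Tcf3 and Tcf12; the 3 genes of nearest pattern are named per member. Smad9 and Tcf4 with the hairpin, Bmp6 and Gdf7 in F4H and the single marker genes were chosen after their values were seen. Gene positions and promoters came from RefSeq tables, in which 33563 of the 47517 symbols were found.

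ES and EPS libraries share replicate numbers in their titles. Deviations from the group means correlated between same-numbered libraries at 0.276, 0.358 and 0.572 over 11072 genes, so the numbers were taken to pair them and blocked values are given for that comparison. Alternatives were DESeq2 1.42.0, its size factors in edgeR, no count filter, only the libraries compared, the replicate block and leaving out each library. Leaving out the third ES and EPS libraries together, and a crossed block on day 6, were chosen after seeing the data.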

Additional observations from a re-analysis of the deposited data

Results flagged for a closer look

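In groups of 2 or 3 libraries no test for an outlying library was made. Effects of opposite sign at the 2 stages or in the 2 control lines were found for 4 of the 7 genes. They were not tested, since the genes were chosen on these levels. Between stages, the hairpin effect on Bmpr1a was higher on day 6 by 0.61 on the log2 scale and that on Smad6 lower (-0.88). Neither undifferentiated hairpin value was called, at -0.16 ± 0.13 for Bmpr1a and 0.50 ± 0.32 for Smad6. Effects were picked by groups without overlap, which 65.7% of all genes showed for the hairpin in undifferentiated cells. The construct effect on Id3 was lower on day 6 (-4.90) and that on Smad6 higher (3.23). The F4H response of Id4 was 2.31 higher in EPS shCtrl than in ES oeCtrl.

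For the other pathway genes named, the differences below passed edgeR's test with Benjamini-Hochberg adjustment. The hairpin effect was lower on day 6 than before for Bmp7 (-2.85), Dusp9 (-1.18) and Prdm1 (-1.81), and higher for Smad7 (1.17), Skil (1.36), Fst (1.52) and Crim1 (1.28). The construct effect was lower on day 6 for Bmp8b (-6.18) and Crim1 (-3.67), and higher for Smad1 (1.39), Twsg1 (1.52), Gata2 (0.99), Dusp9 (1.15) and Prdm1 (2.20). With hairpin and construct alike, Yy1 itself differed less on day 6 than before, as given above, and its part was not tested. The F4H response was lower in EPS shCtrl than in ES oeCtrl for Bmp8b (-6.98), Gdf3 (-3.53), Smad7 (-1.70) and Crim1 (-3.43), and higher for Smad1 (0.66). The Bmp8b values depend on the prior count, since the undifferentiated ES oeCtrl libraries held 1 count of it together.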

How the results depend on the processing

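No called log2 fold change of the 7 genes or of a named list gene changed sign under any alternative. Sign changes of members not called in the main fit were not looked for. Over all genes the larger side did change in places. With RLE factors the undifferentiated construct comparison had 2666 genes higher and 2633 lower, against 2441 and 2814. With the replicate block, EPS against ES had 6392 genes called in place of 5033, 23 list members in place of 15 and 5 of the 7 genes in place of 3. Only those counts of list members and of the 7 genes changed by over 1.5 times with the block. The other groups share only a number, with correlations of -0.102 to 0.143. With numbers 1 and 2 exchanged between the day 6 controls, 10392 genes were called against 10205, with 44 list members and 5 of the 7 genes. With only the libraries compared, the construct comparison had 8149 genes called against 5255, and the cause was not tested.

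Leaving out 1 library at a time gave 3 to 5 of the 7 genes for EPS against ES (5 without the third EPS library), beside 3914 to 5327 of all genes. It gave 2571 to 4853 genes and 9 to 18 list members for the hairpin, against 4682 and 19, the low values coming without the second EPS shCtrl library (2571) or either EPS shYy1 library (2618 and 2703). It gave 3065 to 3614 genes and 12 to 17 list members for the construct, against 5255 and 22. Where a group was left with 1 library, that library was assumed to vary like the other groups. Scaling levels by TMM moved 14 of 70 group means by more than their SD, by at most 10.8%. Levels per kilobase were not run, since no exon lengths were at hand. Counts were low in some groups: Id3 in 1 ES oeCtrl library was at 0.275 CPM, Id4 in 1 EPS shCtrl library at 0.823 CPM, and Id1 in ES oeYy1 at a mean of 0.949 CPM, where its construct comparison had an SE of 0.48.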
